A study of Homo sapiens with 12 samples.

Results

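The genes described here are 10 human genes of the cellular response to low oxygen, taken by symbol from the 23615 gene symbols in the deposited expression tables. They are the transcription factor subunits HIF1A and EPAS1, the oxygen-sensing prolyl hydroxylases EGLN1 and EGLN3, and 6 target genes of the pathway, ADM, VEGFA, BNIP3, CA9, NDRG1 and ANKRD37. They are a list of names, with no measured value in the rule, although results of these data were known when the list was made. The study compared primed and naive human pluripotent stem cells by RNA-seq of poly(A) RNA from manually picked colonies, with 3 libraries in each of 4 groups, the primed and the naive state of the lines H9 and RUES2. Both are established lines of human embryonic stem cells.

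Primed cells grew on mouse embryonic fibroblast feeders treated with mitomycin C, in DMEM/F12 with knockout serum replacement and 4 ng/mL bFGF, and were split every 6 to 7 days with dispase. The primed H9 libraries are labelled passages 31 to 35 and the primed RUES2 libraries passages 30 to 33. Naive cells grew in a serum-free mixture of glucose-free DMEM/F12 and Neurobasal with 5 mM glucose, 20 ng/mL LIF, 18 µg/mL insulin, bovine serum albumin, 1 µM PD0325901, an inhibitor of MEK, and 3 µM CHIR99021, an inhibitor of GSK3, and were split every 3 days. The naive H9 libraries are labelled passages 27 to 31 and the naive RUES2 libraries passages 24 to 26. The series title speaks of transient inhibition of mTor, but the growth text names no mTOR inhibitor. The oxygen level of the cultures and the glucose of the primed medium were not given in the sources used here. Medium, feeders, split interval and state changed together, so their parts in a difference cannot be told apart.

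The HIF pathway works through protein stability: with oxygen present, the EGLN enzymes hydroxylate the HIF alpha subunits, VHL then marks them for degradation, and in low oxygen the subunits escape, pair with ARNT and switch on genes whose control regions hold a hypoxia response element. Transcript levels of HIF1A and EPAS1 therefore do not measure the activity of the factors, whereas EGLN3, ADM, VEGFA, BNIP3, CA9, NDRG1 and ANKRD37 are widely used as transcriptional targets. Primed human pluripotent stem cells are known for strong glycolysis, another process that HIF genes feed.

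The 12 libraries had FPKM sums of 754205 to 986125 and 12681 to 13593 genes at 1 FPKM or more. FPKM is a fragment count scaled by transcript length and by the mapped fragments of the library, so levels can be compared between genes. The deposited confidence interval of genes at 1 to 2 FPKM had a median half-width of 18.9% to 28.8% of the value, the only sign of depth in the tables. All 10 pluripotency markers listed were at 1 FPKM or more in every library, but 6 of them were called lower in naive H9 and 9 lower (1 higher) in naive RUES2. Their summed level was 2201 to 2759 FPKM in primed H9 and 1399 to 1450 in naive H9, and 2155 to 2608 in primed RUES2 and 1488 to 1742 in naive RUES2; its part in the members' differences was not tested. Of 12 listed markers of the naive state, 10 were tested. In the naive libraries 7 of these were called higher in H9 and 4 in RUES2, and 0 were called lower in either line. Of 8 markers of the primed state, 7 were called lower in naive H9 and 6 in naive RUES2, and 0 higher in either line. In a check of genotype-dependent genes, 3 of the 12 libraries did not match their line label, and none of the 3 is labelled H9. Results for RUES2 are therefore given for the libraries labelled RUES2, and the comparison within H9 holds none of the 3 libraries. These 3 cannot be shared equally by the primed and the naive group labelled RUES2. Genotype and state therefore cannot be told apart in the RUES2 comparison, and lines are named below by label only.

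The factor binds the core letters ACGTG or GCGTG. Stretches upstream of the start sites are shown for 4 members, the target genes in which such a core was found. They come from RefSeq promoter windows on GRCh38.p14, which held 8 of the 10 genes by symbol; VEGFA and NDRG1 have no entry. Each is written 5′ to 3′ along the gene's strand, with the core in capitals, read as CACGT or CACGC where it lies on the opposite strand.
ADM, chr11:10304952-10304996, plus strand: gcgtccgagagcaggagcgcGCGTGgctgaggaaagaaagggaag
BNIP3, chr10:131982003-131982086, minus strand: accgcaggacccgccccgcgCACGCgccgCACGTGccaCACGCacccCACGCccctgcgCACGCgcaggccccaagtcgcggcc
ANKRD37, chr4:185396659-185396722, plus strand: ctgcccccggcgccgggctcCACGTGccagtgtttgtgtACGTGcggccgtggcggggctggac
CA9, chr9:35673890-35673927, plus strand: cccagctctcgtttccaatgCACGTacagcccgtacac

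The 250 bases upstream of the BNIP3 start held 6 matches, from -143 to -104, and those of ANKRD37 held 3, at -162, -161 and -143. In both, the palindrome CACGTG counts once on each strand. ADM had 1 match, GCGTG at -101, and CA9 had 1, ACGTG on the opposite strand at -18. Among the regulators, EGLN1 had ACGTG at -13, EPAS1 had GCGTG at -117, and of the 2 HIF1A windows 1 had GCGTG at -204. The EGLN3 window held neither core. Searched on both strands, 1 or both of the cores were in 43.2% of 35116 promoter windows before the start, so a match is common and is only a description of these letters.

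The order of the levels spanned more than 2 orders of magnitude. In primed H9, mean FPKM fell from BNIP3 (102) through HIF1A (56.7), ADM (32.9), VEGFA (15.1), EGLN3 (13.5), EGLN1 (4.58), ANKRD37 (1.67), NDRG1 (1.30) and CA9 (0.423) to EPAS1 (0.296). Libraries overlapped between the neighbours BNIP3 and HIF1A, VEGFA and EGLN3, ANKRD37 and NDRG1, and CA9 and EPAS1. In naive H9 the order was BNIP3 (76.6), HIF1A (50.1), ADM (11), VEGFA (4.67), EGLN3 (4.44), EGLN1 (3.71), NDRG1 (1.86), EPAS1 (1.4), ANKRD37 (0.529) and CA9 (0.125). EPAS1 thus stood below ANKRD37 and NDRG1 in primed H9 and above ANKRD37 in naive H9.

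**Figure D1:**
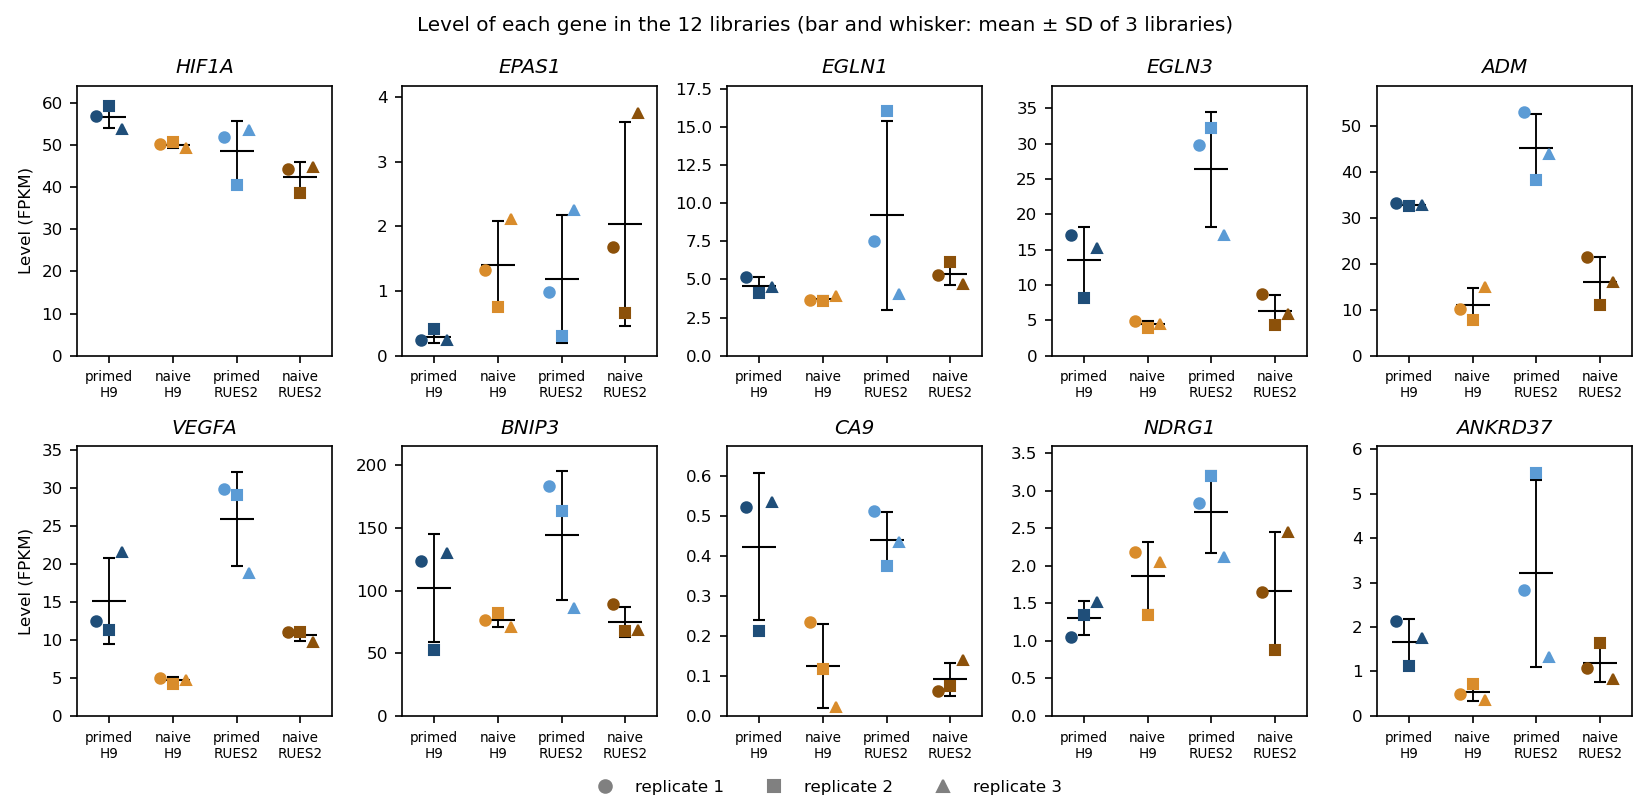
Level in FPKM (vertical axis, a separate scale per gene) of the 10 genes in the 12 libraries, grouped by state and line; symbols are replicates 1 to 3, and bars and whiskers are the mean and SD of 3 libraries. EGLN3, ADM and VEGFA stand lower in every naive library than in any primed library of the same line, while HIF1A differs little and CA9 stays under 1 FPKM throughout.

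Naive cells had lower EGLN3, ADM and VEGFA in H9 and in the libraries labelled RUES2. Primed means were 2.44 to 4.17 times the naive means. No member was called higher in either line in the main fit, which had a mean per group over all 12 libraries. EPAS1 was higher in every naive H9 library than in any primed one and was called in 2 of 21 alternatives. These were the fit of H9 alone and a fit of all 12 libraries with the replicate number as a block. HIF1A and EGLN1 did not pass the test in either line, and neither did BNIP3 and NDRG1. Of the 9 members above the filter of 1 FPKM in 3 libraries, 0 were called higher and 3 lower in H9, where 20.4% of all 14429 tested genes were called higher and 23.9% lower. In the libraries labelled RUES2, 0 were called higher and 4 lower, against 23.1% of all genes higher and 23.7% lower. The members' median difference was -0.31 in H9 and -0.84 in RUES2 on the log2(FPKM + 1) scale, beside -0.01 and 0.01 for all genes. Calls are limma's at an adjusted p under 0.05, after Benjamini-Hochberg adjustment over all tested genes, and differences are naive minus primed on that scale, which understates the change of low genes.

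HIF1A encodes the oxygen-labile subunit of HIF-1 and was abundant everywhere. It measured 56.9, 59.3 and 53.9 FPKM in primed H9 and 50.2, 50.7 and 49.2 in naive H9. The corresponding RUES2 levels were 52.0, 40.5 and 53.5 FPKM primed and 44.3, 38.5 and 44.8 naive. The naive H9 libraries all stood below the primed ones, by a small margin, while in RUES2 primed replicate 2 lay among the naive libraries. The difference was -0.18 in each line (SE 0.10, n = 3 per group; limma adjusted p = 0.189 in H9 and 0.170 in RUES2), with 95% intervals of -0.40 to 0.05 and -0.41 to 0.05. Without primed RUES2 replicate 2 the RUES2 difference was -0.31 (limma adjusted p = 0.0119). HIF1A-AS2, an antisense gene at 9.0 to 20.7 FPKM, shares 1221 bases with HIF1A in the tables, and without known strandedness reads of the pair cannot be told apart.

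EPAS1 encodes HIF-2 alpha, known from endothelium and other vascular tissue, and was low. Its levels were 0.242, 0.411 and 0.235 FPKM in primed H9 and 1.33, 0.75 and 2.12 in naive H9. In RUES2 they were 0.989, 0.305 and 2.26 FPKM primed and 1.68, 0.663 and 3.76 naive. The H9 groups did not overlap, and the RUES2 groups overlapped over most of their range. The difference was 0.85 ± 0.40 (SE, n = 3 per group) in H9, with a limma adjusted p of 0.109, and 0.44 ± 0.40 in RUES2, with a limma adjusted p of 0.391. When H9 was fitted without the RUES2 libraries, the H9 difference passed the test (limma adjusted p = 0.0242).

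Markers of several other cell types also differed between the states. Of 15 listed fibroblast markers, 9 were called higher in the naive state in each line and 1 (H9) or 2 (RUES2) lower, and none was at 0 in any library. Their summed level ran from 147 to 268 FPKM in primed H9, 405 to 647 in naive H9, 90.6 to 200 in primed RUES2 and 224 to 1169 in naive RUES2. THY1, in this sum, is also a listed marker of the primed state. It supplied 81.4 to 131 FPKM in primed H9 and 18.3 to 23.0 in naive H9. In RUES2 it supplied 51.1 to 107 FPKM primed and 6.91 to 16.6 naive. In naive H9, primed RUES2 and naive RUES2 alike, replicate 3 had the highest EPAS1 and the highest marker sum, and replicate 2 the lowest of both. In primed H9 the order differed, with the highest EPAS1 in replicate 2 and the highest marker sum in replicate 3. Without naive RUES2 replicate 3 the EPAS1 difference in RUES2 was 0.05 (limma adjusted p = 0.927). Of 7 tested trophoblast and amnion markers, 4 were called higher and 1 lower in naive H9, and 3 higher and 2 lower in naive RUES2. Their summed level ran from 9.27 to 19.0 FPKM in primed H9, 46.0 to 146 in naive H9, 23.3 to 42.8 in primed RUES2 and 35.6 to 81.9 in naive RUES2, with the same replicate order as EPAS1 within both naive groups. Mesendoderm markers were called higher in 6 of 9 in each line (1 lower in H9), and neural markers in 4 of 4 in H9 and 3 of 4 in RUES2. The part of these markers in the EPAS1 levels was not tested. In bulk samples, fewer cells of a type and less RNA per cell cannot be told apart. Of 8 endothelial markers 3 were above the filter; 0 were called in H9 and 2 were called higher in RUES2. Their sum was 12 to 21.7 FPKM in primed H9 and 12.4 to 16.6 in naive H9, and 5.45 to 13.8 in primed RUES2 and 17.0 to 22.8 in naive RUES2, with no overlap in RUES2. The part of this sum was likewise not tested. Of the endothelial markers, KDR and TEK are also counted among the other hypoxia target genes below.

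EPAS1 made up 0.515% ± 0.150 (SD, n = 3) of the summed HIF1A and EPAS1 FPKM in primed H9 and 2.72% ± 1.34 in naive H9. In RUES2 the share was 2.22% ± 1.68 primed and 4.36% ± 3.09 naive. HIF3A is not part of this share.

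EGLN1, or PHD2, is regarded as the main oxygen sensor of the HIF pathway. Its levels were 5.17, 4.08 and 4.48 FPKM in primed H9 and 3.65, 3.55 and 3.93 in naive H9. In RUES2 they were 7.55, 16 and 4.02 FPKM primed and 5.27, 6.17 and 4.67 naive. Every naive H9 library lay below every primed one, whereas the primed RUES2 libraries ran from below to far above all naive ones. Neither difference was called, at -0.24 ± 0.33 (SE) in H9 (limma adjusted p = 0.588) and -0.51 ± 0.33 in RUES2 (limma adjusted p = 0.239). Leaving out primed RUES2 replicate 3, the lowest of its group, gave -0.93 in RUES2, a called difference (limma adjusted p = 0.0125).

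EGLN3, or PHD3, is both an oxygen sensor and a HIF target gene and fell in both lines. Primed H9 measured 17.1, 8.12 and 15.3 FPKM and naive H9 4.94, 3.91 and 4.48. Primed RUES2 measured 29.7, 32.2 and 17.1 FPKM and naive RUES2 8.76, 4.28 and 5.92. No naive library reached the lowest primed library of its line. The primed mean was 3.04 times the naive mean in H9 and 4.17 times in RUES2. On the log2(FPKM + 1) scale EGLN3 fell by 1.36 (SE 0.31, limma adjusted p = 0.00552) in H9 and by 1.90 (SE 0.31, limma adjusted p = 0.000723) in RUES2, lower in 3 of 3 naive libraries in each line.

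The balance of the 3 prolyl hydroxylase transcripts moved with EGLN3. EGLN3 made up 25.4% ± 8.80 (SD, n = 3) of the summed EGLN1, EGLN2 and EGLN3 FPKM in primed H9 and 9.35% ± 0.744 in naive H9, and 35.8% ± 6.72 in primed RUES2 and 12.9% ± 4.32 in naive RUES2. EGLN2, the hydroxylase not known as a HIF target, was the most abundant of the 3 in every library, at group means of 35.1 FPKM primed and 39.2 naive in H9, and 37.2 primed and 37.0 naive in RUES2. It was not called in either line (0.17, limma adjusted p = 0.232 in H9; -0.0029, limma adjusted p = 0.985 in RUES2).

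**Figure D2:**
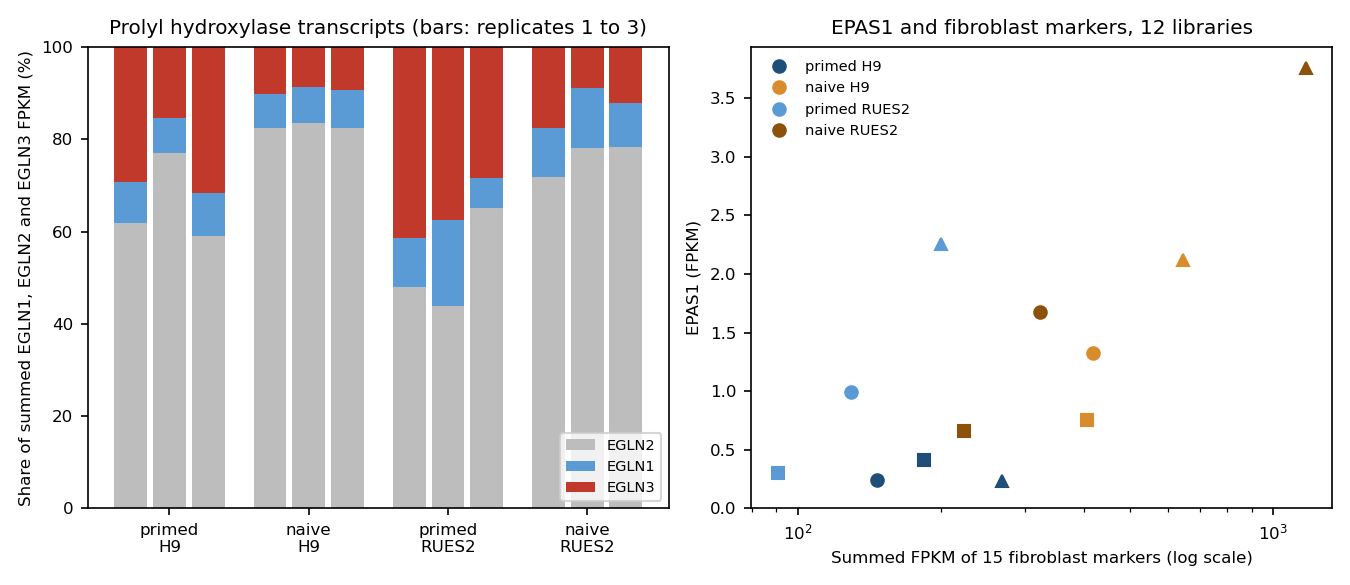
Left, share of EGLN1, EGLN2 and EGLN3 in their summed FPKM (percent) in each of the 12 libraries, 3 bars per group; the EGLN3 share is 15.4% to 41.5% in primed and 8.62% to 17.5% in naive libraries. Right, EPAS1 in FPKM against the summed FPKM of 15 fibroblast markers (log axis), 1 point per library with symbols for replicates 1 to 3; the library with most of both is naive RUES2 replicate 3, at 3.76 and 1169 FPKM.

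ADM encodes adrenomedullin, a secreted vasodilator peptide, and was the target with the tightest primed H9 values. It measured 33.2, 32.6 and 32.8 FPKM in primed H9 and 10.2, 7.82 and 15 in naive H9. In RUES2 it measured 53.2, 38.4 and 44.0 FPKM primed and 21.4, 10.9 and 16.1 naive. Naive and primed libraries did not overlap in either line. The primed mean was 2.99 times the naive mean in H9 and 2.80 times in RUES2. ADM fell by 1.54 (SE 0.24, limma adjusted p = 0.000673) in H9 and by 1.46 (SE 0.24, limma adjusted p = 0.000833) in RUES2, so the lines differed by 0.08, with a 95% interval of -0.69 to 0.85.

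VEGFA encodes the growth factor that drives blood vessel formation. Its levels were 12.4, 11.3 and 21.6 FPKM in primed H9 and 5.04, 4.19 and 4.77 in naive H9. In RUES2 they were 29.8, 29.1 and 18.8 FPKM primed and 11.1, 11 and 9.74 naive. All naive libraries stood below all primed libraries of their line, and the naive libraries of each line were close together. VEGFA fell by 1.45 (SE 0.23, limma adjusted p = 0.000593) in H9 and by 1.19 (SE 0.23, limma adjusted p = 0.00176) in RUES2, with primed means 3.23 and 2.44 times the naive means. EGLN3, ADM and VEGFA kept their calls in both lines under all 22 alternative settings run, leaving out each library included.

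BNIP3 encodes a mitochondrial protein of mitophagy and cell death and was the most abundant member by group mean, with a large spread among primed libraries. It measured 124, 52.9 and 130 FPKM in primed H9 and 76.6, 81.9 and 71.2 in naive H9. In RUES2 it measured 183, 164 and 85.7 FPKM primed and 88.9, 67.8 and 68.5 naive. A single primed library in each line, replicate 2 in H9 and replicate 3 in RUES2, lay among or below the naive libraries. The difference was -0.31 ± 0.35 (SE) in H9 (limma adjusted p = 0.503) and -0.87 ± 0.35 in RUES2 (limma adjusted p = 0.0619). Without primed H9 replicate 2 the H9 difference was -0.72 (limma adjusted p = 0.0550), and without primed RUES2 replicate 3 the RUES2 difference was -1.21 (limma adjusted p = 0.0151). Reads of processed copies of BNIP3 elsewhere in the genome may be shared with it, so its level carries that uncertainty. Its close relative BNIP3L, also a mitophagy receptor and a target gene, was called lower in both lines, by 0.97 (limma adjusted p = 0.00736) and 1.52 (limma adjusted p = 0.000510).

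ANKRD37 encodes an ankyrin repeat protein and is a small HIF target gene at the edge of detection. It measured 2.13, 1.13 and 1.75 FPKM in primed H9 and 0.494, 0.729 and 0.365 in naive H9. In RUES2 it measured 2.84, 5.47 and 1.32 FPKM primed and 1.07, 1.64 and 0.835 naive. The H9 groups did not overlap, and in RUES2 naive replicate 2 lay above primed replicate 3. The difference was -0.79 ± 0.31 (SE) in H9, not called (limma adjusted p = 0.0635), and -0.84 ± 0.31 in RUES2, called (limma adjusted p = 0.0489). The RUES2 call was lost in 14 of 21 alternatives, reaching a limma adjusted p of 0.16 and a difference of -0.47 without primed RUES2 replicate 2. In H9 the difference was called in 5 of 21 alternatives, among them the fit of H9 alone (limma adjusted p = 0.0146). UFSP2, at 10.1 to 15.7 FPKM, shares 697 bases with ANKRD37 in the tables.

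NDRG1 encodes a stress-responsive protein of the cytoplasm and was the member whose differences had opposite signs in the lines. It measured 1.05, 1.34 and 1.51 FPKM in primed H9 and 2.19, 1.35 and 2.05 in naive H9. In RUES2 it measured 2.84, 3.20 and 2.12 FPKM primed and 1.65, 0.884 and 2.45 naive. The groups overlapped in both lines. The difference was 0.31 ± 0.21 (SE) in H9 (limma adjusted p = 0.269) and -0.51 ± 0.21 in RUES2 (limma adjusted p = 0.0720). The difference between the lines, -0.82 with a 95% interval of -1.49 to -0.15, had an unadjusted p of 0.0215 and a limma adjusted p of 0.149.

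CA9 encodes carbonic anhydrase IX, a membrane enzyme much used as a hypoxia marker, and was barely detected. It measured 0.522, 0.212 and 0.534 FPKM in primed H9 and 0.234, 0.118 and 0.0219 in naive H9. In RUES2 it measured 0.512, 0.373 and 0.434 FPKM primed and 0.0610, 0.0739 and 0.139 naive. No library reached 1 FPKM, so CA9 was under the filter and was not tested with the other members. The lower bound of the deposited interval was 0 in 5 of 12 libraries, all of them naive. An exact two-sided permutation test of the means gave p = 0.2 in H9, where naive replicate 1 lay above primed replicate 2, and p = 0.1 in RUES2, where the groups did not overlap; 0.1 is the smallest p that 3 against 3 libraries allow. With no filter, limma gave -0.34 (adjusted p = 0.0317) in H9 and -0.40 (adjusted p = 0.0136) in RUES2. That fit took in all 23615 genes, near-zero ones included. It called 3082 higher and 3768 lower in H9, and 3584 higher and 4044 lower in RUES2. The CA9 values in it all lay near the floor.

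**Figure D3:**
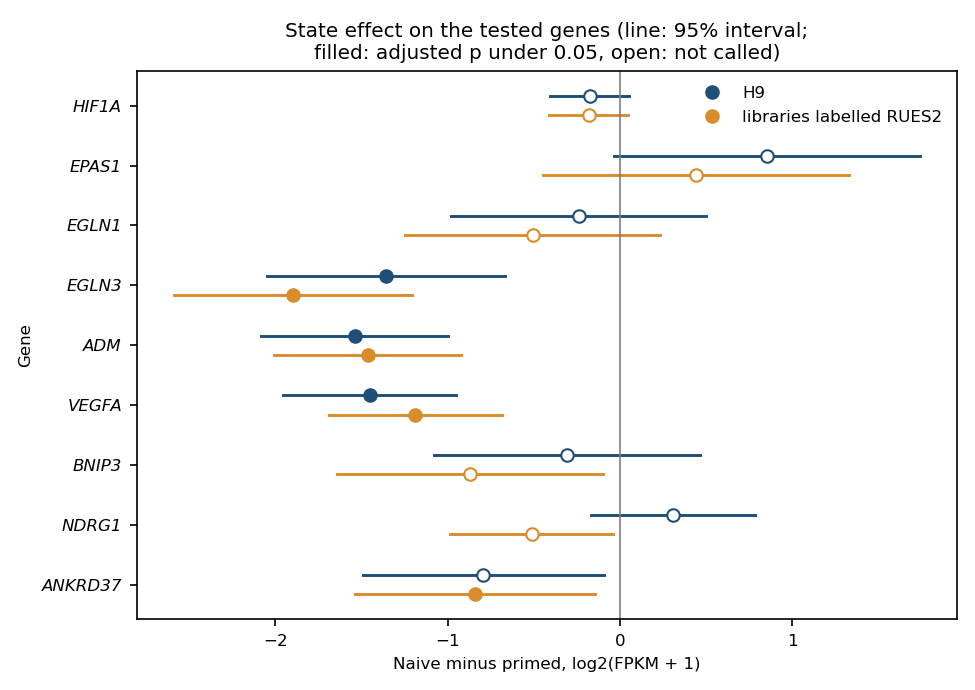
Naive minus primed difference in log2(FPKM + 1) (horizontal axis) for the 9 tested members in H9 and in the libraries labelled RUES2; lines are 95% intervals from limma and filled points are differences called at an adjusted p under 0.05. EGLN3, ADM and VEGFA are called lower in both lines, between -1.90 and -1.19, and the HIF1A points lie at -0.18 in both.

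The state differences of the 2 lines were compared directly. None of the 9 members was called different between the lines by limma: 0 were called with a larger or a smaller naive minus primed difference in RUES2, where 3.77% and 1.93% of all tested genes were called (544 and 279 genes, or 418 and 344 with the libraries rescaled to a common sum without short RNAs), and 1 member, NDRG1, had an unadjusted limma p under 0.05. The intervals are wide: for EGLN3 the difference between the lines was -0.54 (95% interval -1.52 to 0.43), for VEGFA 0.26 (-0.45 to 0.97), for BNIP3 -0.57 (-1.66 to 0.53) and for EPAS1 -0.41 (-1.67 to 0.85).

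Between the lines in the same state, VEGFA alone was called. In the naive state VEGFA was higher in the libraries labelled RUES2 by 1.03 (SE 0.23, limma adjusted p = 0.0127), with no overlap between 9.74 to 11.1 FPKM and 4.19 to 5.04 FPKM; without naive H9 replicate 2 the limma adjusted p was 0.0509. Of 9 members 1 was called higher and 0 lower, against 11.2% and 4.69% of all tested genes. With the libraries rescaled to a common sum without short RNAs, those genome-wide counts turned from 1612 higher and 677 lower to 1096 higher and 1350 lower, and HIF1A, at -0.23 as deposited (limma adjusted p = 0.155), was then called lower (-0.36, limma adjusted p = 0.0339). In the primed state no member was called in either direction, against 1.34% of all genes higher and 0.471% lower, and 3 had an unadjusted limma p under 0.05, all higher in RUES2: EGLN3 by 0.93, VEGFA by 0.77 and NDRG1 by 0.68. Primed NDRG1 did not overlap between the lines, and primed EGLN3 only just did not, with 17.1 FPKM both in the highest H9 and the lowest RUES2 library, while VEGFA in primed RUES2 replicate 3 lay below primed H9 replicate 3. The VEGFA difference in the primed state passed the test without primed H9 replicate 3 (1.04, limma adjusted p = 0.0208).

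The primed libraries of a line did not show the members at equal levels. In primed RUES2, replicate 2 was highest in 4 of the 9 tested members, EGLN1, EGLN3, NDRG1 and ANKRD37, and replicate 3 was lowest in 6 of 9. Among 64 tested hypoxia target genes outside the members, replicate 2 was highest in 38 (59.4%), where it was highest in 42.8% of all genes, and replicate 3 was lowest in 41 (64.1%), against 37.4% of all genes. In primed H9, replicate 2 was lowest in 6 of 9 members and in 32 of the 64 other targets, and in 13 of 17 glycolytic targets (76.5%), against 27.5% of all genes. EPAS1 and HIF1A ran the other way in primed RUES2, lowest in replicate 2 and highest in replicate 3. The target ADM was also lowest in replicate 2, at 38.4 FPKM, and was highest in replicate 1, at 53.2 FPKM. These counts describe single libraries and carry no test.

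**Figure D4:**
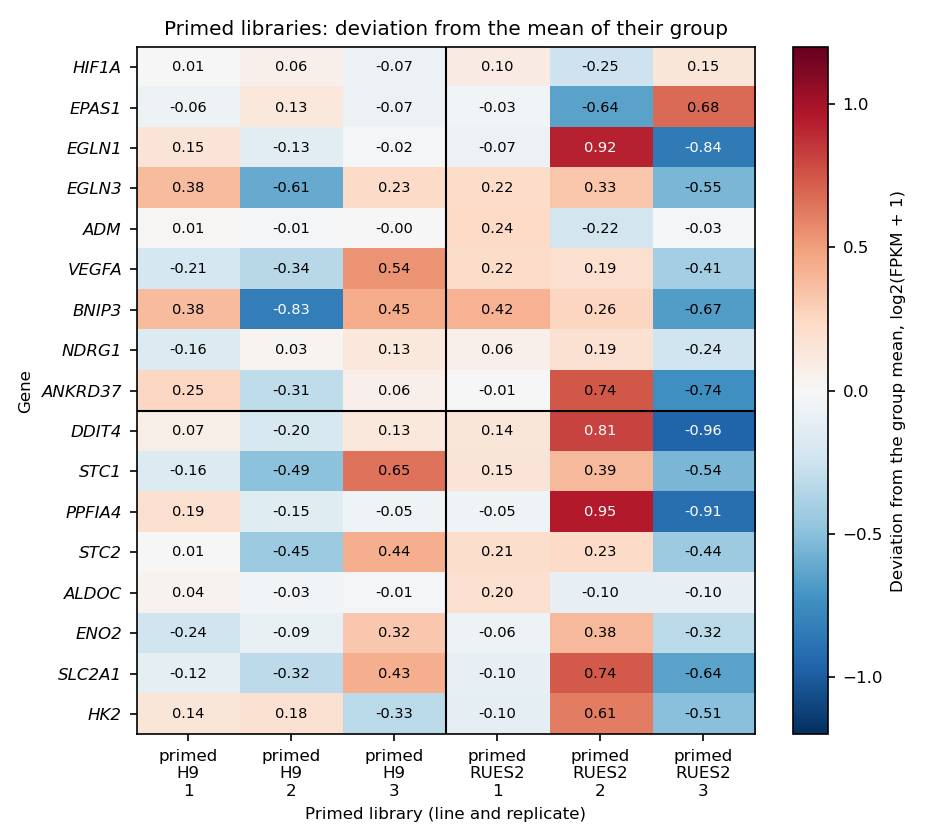
Deviation of each primed library (columns, 3 per line) from the mean of its group, in log2(FPKM + 1), for the 9 tested members (above the line) and the leading other targets and glycolytic targets (below it); red is above and blue below the mean. EGLN1 deviates by 0.92 in primed RUES2 replicate 2 and by -0.84 in replicate 3, and BNIP3 by -0.83 in primed H9 replicate 2.

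Other genes of the pathway were read from 3 lists. Of 28 further regulators of HIF, 27 were in the tables and above the filter; 5 were called higher and 4 lower in H9, and 5 higher and 9 lower in RUES2. These are 18.5% and 14.8% of the list in H9, both under the shares of all genes (20.4% and 23.9%), and 18.5% and 33.3% in RUES2, beside 23.1% and 23.7% of all genes. The list medians were -0.02 and -0.07. The 4 called regulators with the largest change averaged over both lines were all lower in naive cells. P4HTM, a membrane-bound prolyl hydroxylase, measured 5.96, 5.02 and 9.27 FPKM in primed H9 and 0.832, 1.42 and 1.03 in naive H9 and fell by 1.86 (limma adjusted p = 0.000107) in H9 and by 2.45 (limma adjusted p = 1.8e-05) in RUES2. HIF3A, the third alpha subunit and a HIF target itself, fell by 1.29 in H9 and 1.67 in RUES2. ARNT2, a partner of the alpha subunits, fell by 0.85 and 1.46, and CITED4, which competes for the coactivators of HIF, by 0.81 and 0.80. The ARNT2 call in H9 was lost in 4 of 21 alternatives, with no filter and without primed H9 replicate 2, naive H9 replicate 1 or naive H9 replicate 3, to a limma adjusted p of up to 0.0865. VHL, chosen for mention after its values were seen, was called higher in both lines, by 0.31 and 0.22, and the RUES2 call was lost in 11 of 22 alternatives.

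Among 71 other hypoxia target genes, 64 were above the filter. In H9, 6 were called higher and 22 lower (34.4% of those tested, beside 23.9% of all genes), and in RUES2 6 higher and 30 lower (46.9%, beside 23.7%), with list medians of -0.50 and -0.60. The genes with the largest mean change were DDIT4, a stress-induced repressor of mTORC1, the secreted stanniocalcins STC1 and STC2, and PPFIA4, a liprin. DDIT4 measured 80.2, 66.5 and 83.4 FPKM in primed H9 and 14.7, 15.7 and 20.5 in naive H9. In RUES2 it measured 173, 276 and 80.2 FPKM primed and 36.6, 40.2 and 32.5 naive. DDIT4 fell by 2.12 (SE 0.35, limma adjusted p = 0.000786) in H9 and by 2.08 (SE 0.35, limma adjusted p = 0.000803) in RUES2. In each line this was more than any tested member. STC1 fell by 1.42 and 2.61, STC2 by 2.22 and 1.35, and PPFIA4 by 1.45 and 2.40. The 6 higher genes in H9 were PLOD2, LOX, LOXL2, HIGD1A, JMJD6 and DUSP1, and in RUES2 LOX, CA12, HIGD1A, KDR, PGF and JMJD6. The H9 call was lost in 9 of 22 alternatives for LOXL2, among them every H9 library left out except naive replicate 2, and replicate 1 of primed or of naive RUES2 (limma adjusted p up to 0.128), and without naive H9 replicate 3 for PLOD2 (limma adjusted p = 0.0512). The RUES2 call was lost in 11 of 21 alternatives for PGF, among them each naive RUES2 library, primed RUES2 replicate 2 and naive H9 replicate 1 left out (limma adjusted p up to 0.139), and in 3 of 22 for KDR, without primed RUES2 replicate 1, primed RUES2 replicate 2 or naive RUES2 replicate 1 (limma adjusted p up to 0.0651). LOX and LOXL2 encode enzymes that crosslink collagen and PLOD2 one that modifies it; the fibroblast markers given with EPAS1, several of them collagens, were also higher in naive libraries, and their part was not tested. LOX rose by 1.34 in H9 and by 1.94 in RUES2, where naive RUES2 replicate 3 measured 15.4 FPKM and the other naive RUES2 libraries 5.03 and 3.98.

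Of 17 glycolytic target genes, all above the filter, 0 were called higher and 4 lower in H9, and 1 higher and 8 lower in RUES2, with medians of -0.34 and -0.30. The lower calls in H9 are 23.5% of the list, near the 23.9% of all genes, and those in RUES2 are 47.1%, beside 23.7%. The 4 in H9 were HK2, PFKM, ALDOC and ENO2. ALDOC, the brain-type aldolase, measured 39.8, 37.9 and 38.4 FPKM in primed H9 and 10.6, 11.4 and 11 in naive H9, and fell by 1.73 (limma adjusted p = 7.47e-07) in H9 and by 1.61 (limma adjusted p = 1.32e-06) in RUES2. ENO2, the neuronal enolase, fell by 0.68 in H9 and by 1.19 in RUES2, and the hexokinase HK2 by 0.67 and 0.90, with the H9 call of HK2 lost in 10 of 22 alternatives, each H9 library left out except primed replicate 3 among them. The H9 call of ENO2 was lost without primed H9 replicate 3 (limma adjusted p = 0.0562) and without naive H9 replicate 1 (limma adjusted p = 0.0509). The glucose carrier SLC2A1 fell in RUES2 by 1.16 (limma adjusted p = 0.0106) and differed by -0.43 in H9 (limma adjusted p = 0.283). ENO1, the ubiquitous enolase and the 1 gene of the list called higher, was among the most abundant, at 1004 to 1466 FPKM over the libraries labelled RUES2, and rose there by 0.33 (limma adjusted p = 0.0298), a call lost in 9 of 22 alternatives.

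**Figure D5:**
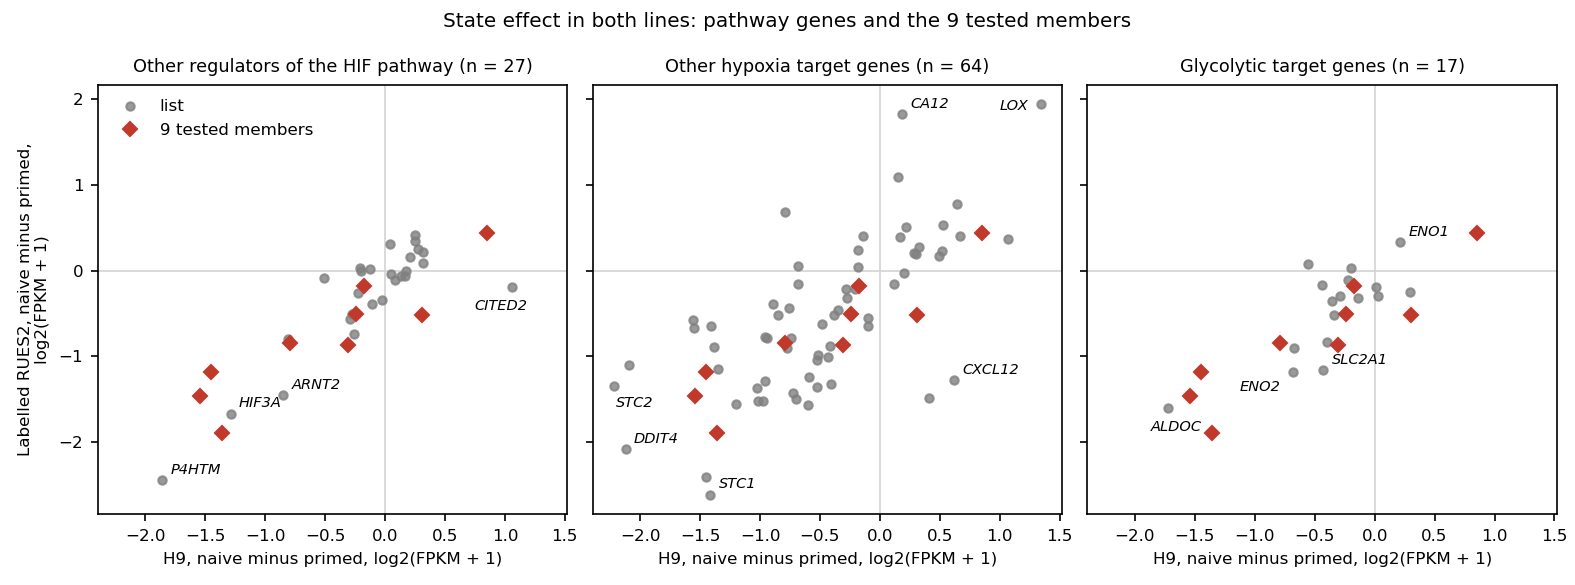
Naive minus primed difference in log2(FPKM + 1) in H9 (horizontal) and in the libraries labelled RUES2 (vertical) for the 9 tested members (diamonds, repeated in each panel) and for 27 other HIF regulators, 64 other hypoxia targets and 17 glycolytic targets (circles). Most other targets lie below 0 on both axes, with LOX above 0 on both (1.34 and 1.94) and CA12 above it mainly in RUES2 (0.18 and 1.83).

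The genes most like the 4 called members across the 12 libraries were found by the root mean square difference of log2(FPKM + 1) profiles, each centred on its own mean. For EGLN3 they were FGF11 (0.29) and SCT (0.30), for ADM C6orf132 (0.22) and CAMSAP3 (0.22), for VEGFA CDCP1 (0.21) and ZDHHC23 (0.22), and for ANKRD37 PDE3A (0.20) and FZD8 (0.21). The members' own SD over the libraries was 0.95 for EGLN3, 0.83 for ADM, 0.84 for VEGFA and 0.60 for ANKRD37. The 12 libraries share states and lines, so a close profile is a description of these groups.

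In the hg19 coordinates of the deposited tables, counted from 1, the members lie at chr14:62162119-62214977 (HIF1A), chr2:46524541-46613842 (EPAS1), chr1:231499497-231560790 (EGLN1), chr14:34393421-34420284 (EGLN3), chr11:10326642-10328923 (ADM), chr6:43737946-43754223 (VEGFA), chr10:133781204-133795435 (BNIP3), chr9:35673915-35681154 (CA9), chr8:134249414-134309547 (NDRG1) and chr4:186317840-186321390 (ANKRD37). Each span is the whole gene as the tables list it, introns and untranslated regions included.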

How the data were processed

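RNA-seq libraries of 4 groups of 3 were used. Per the file headers, the authors deposited a table for each library that lists FPKM by gene with its confidence bounds and status, whereas the design text calls the unit RPKM. The submitters' processing notes name bcl2fastq 2.17.1.14, TopHat2 2.1.1 and hg19. Strandedness, gene annotation and the FPKM program were not given in the sources used here. Counts were absent from the columns used, and whole reads were not recovered: 29.2% to 32.9% of implied low fragment numbers lay within 0.05 of a whole number. Of several loci with 1 symbol (554 symbols), that with the highest mean was used; no member was affected, and 0 columns of other samples were used.

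From these values, limma 3.58.1 in R 4.3.3 was fitted on log2(FPKM + 1), two-sided, to the 14429 genes that reached 1 FPKM in 3 or more libraries, with a mean per group over all 12 libraries and a variance trend. Adjustment was over all genes tested, with calls under 0.05, and the code was tested on simulated data. Figures used Python 3.11.15, pandas 2.3.3, numpy 2.4.6 and matplotlib 3.10.9. Replicates are called biological in the design text, with no word on separate cultures; the p-values thus rest on the spread between libraries, which may be technical. The members and lists were chosen with earlier results of these data known. Named are all members, up to 4 called genes per list with the largest mean change over both lines, and the 2 nearest profiles of each called member; other names were added after their values were seen.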

Additional observations from a re-analysis of the deposited data

Results flagged for a closer look

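Single libraries were not tested as outliers, since the groups hold 3. No member's state difference was called different between the lines. Among the other hypoxia target genes, 2 were. CA12, a membrane carbonic anhydrase related to CA9, had a naive minus primed difference larger in the libraries labelled RUES2 than in H9 by 1.64 on the log2(FPKM + 1) scale (SE 0.29, limma adjusted p = 0.0116). It measured 0.983 to 1.22 FPKM in primed H9, 1.1 to 1.5 in naive H9, 0.944 to 1.55 in primed RUES2 and 5.26 to 10.8 in naive RUES2. CXCL12, a chemokine, had a difference of -1.90 between the lines (SE 0.37, limma adjusted p = 0.0164). It measured 9.93 to 18.1 FPKM in primed H9, 17.3 to 30.8 in naive H9, 29.3 to 44.3 in primed RUES2 and 11 to 15.8 in naive RUES2, so the direction was opposite in the lines, although the H9 difference alone was not called (0.62, limma adjusted p = 0.0776). Both differences rest on groups that hold the 3 libraries that did not match their line label. Both were called in all 21 alternatives that could be fitted. They were noted after their values were seen.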

How the results depend on the processing

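No call of a member or of a listed gene reversed under the 22 alternatives, 21 of them planned and 1 added after seeing the data, in which both primed replicates 2 were left out. Members called higher in H9 went from 0 to 1 (EPAS1) with the replicate block (limma adjusted p = 0.0361) and with only the groups compared, and those called higher between naive lines from 1 to 2 with only the groups compared. Members called lower between naive lines went from 0 to 1 (HIF1A) with a common sum without short RNAs and without both primed replicates 2. Leaving out each library gave 0 to 1 members called higher between primed lines, 0 to 1 higher and 0 to 1 lower between naive lines, 3 to 4 lower in H9 and 3 to 6 lower in RUES2. Replicate numbers are shared in the labels, but in no comparison did all same-numbered pairs deviate together beyond a correlation of 0.1 (-0.05 to 0.01 between the H9 states, 0.01 to 0.08 between the RUES2 states, -0.02 to 0.14 between primed and 0.02 to 0.11 between naive lines), so the replicate block is only an alternative. Between the RUES2 states every library correlated best with its own number, a hint from the data and not the design; between the H9 states this did not hold. The block left 3 members lower in H9 and 4 in RUES2.

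The BNIP3 difference in RUES2 was also called without primed H9 replicate 2 (limma adjusted p = 0.0150), through the shared spread alone, and NDRG1 without naive RUES2 replicate 3 (-0.72, limma adjusted p = 0.0174). The counts of lists moved. In H9, other targets lower went from 22 to between 15 and 29, and regulators higher from 5 to between 2 and 8. The 15 came with a filter of 5 FPKM, which left only 10034 genes tested. Leaving out single libraries gave 17 to 25 other targets lower in H9. Glycolytic targets lower in H9 went from 4 to between 2 and 8, the 8 without both primed replicates 2. In RUES2, other targets lower went from 30 to between 22 and 32, with 22 also reached on leaving out a single library. There, regulators higher went from 5 to as few as 2 and glycolytic targets lower from 8 to as few as 5. Genome-wide calls between primed lines, 194 higher and 68 lower, fell to 23 and 4 with only those groups fitted, those between naive lines ranged from 873 to 2042 higher and 282 to 1350 lower, and those of the difference between state effects from 241 to 590 and 128 to 345. Scaling moved the median of all genes most between naive lines, from 0.02 as deposited to -0.09 with a common sum without short RNAs. Depth limits CA9, EPAS1 and ANKRD37, which lay near or under 1 FPKM.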
